A study of Homo sapiens with 9 samples.

Results

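Kinesins, dyneins and tubulins are the motors of the microtubule and the subunits of its wall, and 61 of the 14839 genes measured in MP41 cells belong to them. The members were found by symbol alone, as the genes beginning with KIF, DYNC, DYNLL, DYNLRB, DYNLT, TUBA, TUBB or TUBG, without symbols that end in P and digits and without antisense genes. Of 76 genes with such a beginning, 15 were left out in this way. Of these, 8 are annotated as pseudogenes, and the protein-coding KIFAP3 and TUBGCP2 to TUBGCP6 went with them because of their spelling. The 61 members comprise 13 kinesins of the mitotic spindle, 24 other kinesins, 11 dyneins, 4 alpha-tubulins, and 9 beta- and gamma-tubulins. TUBA3FP, 1 of the 4 alpha-tubulins, is annotated as a processed transcript, and the other 60 members are protein-coding.

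Alpha- and beta-tubulin pair into the dimer from which microtubules are built, and gamma-tubulin starts new microtubules. Most kinesins walk towards the plus end of the microtubule and carry organelles, vesicles and mRNAs, whereas a separate set assembles the spindle, moves chromosomes and completes cytokinesis. Cytoplasmic dynein is a large complex of heavy, intermediate, light intermediate and light chains that walks towards the minus end. In melanocytes, kinesins and dynein move the pigment organelles along the microtubules.

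RNA sequencing of polyA RNA was performed in MP41 cells, an established uveal melanoma (UM) line, transfected at 66 nM with synthetic miR-16 or with miR-CTR, the control mimic. There were 4 libraries with miR-16, at 6, 12, 24, and 48 h, and 5 labelled miR-CTR, at the same times and at 0 h. All 9 libraries thus came from 1 cell line, with 1 library per condition. The 0 h library is the starting time point, to which no dose of a mimic applies. A change since 0 h therefore holds the effects of transfection and of time in culture together. The deposited values are log2 normalized reads, and the log2 fold change (logFC) at each time is the miR-16 value minus the miR-CTR value of that time. Averaging 6 with 12 h gave the early logFC, averaging 24 with 48 h gave the late logFC, and genes past 0.5 in size are called. Each condition had no replicate, so no logFC at a given time has a replicate check, no test between the mimics was made, and how far cultures vary among themselves is unknown. The standard error (SE) given beside a logFC comes from the reads and covers counting error only. In bulk RNA, fewer cells in a given state and less RNA per cell cannot be told apart.

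The libraries held between 20280000 and 27360000 reads (rounded), so that the deepest had 1.349 times the reads of the shallowest, and their medians lay between 9.13 and 9.17. All 8 markers of the melanocyte lineage were present, with TYRP1 at a log2 of 17.88 and PMEL at 16.62 at 0 h. Among the markers of other cells, 0 of 3 endothelial, 1 of 3 leukocyte and 2 of 4 fibroblast genes are among the genes of the file. The highest of these was COL1A1, at a log2 of 8.31 at 0 h.

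The transfected miRNA and its matches in these genes are shown first, because the values of members with and without a match are compared in what follows. The mature miR-16 (RefSeq on GRCh38.p14, chr13:50049027-50049048 on the reverse strand) is printed with its seed, positions 2 to 8 from the 5′ end, in capitals. The windows below it are 22 bases of the 3′UTR, in the 5′ to 3′ direction of the mRNA and in DNA letters, with the match in capitals. A 7mer-m8 is complementary to the whole seed (TGCTGCT), an 8mer has an A after it (TGCTGCTA), and a 7mer-A1 (GCTGCTA) lacks the base opposite position 8. The windows are those of the 6 members that were below −0.5 at both 24 and 48 h.
hsa-miR-16-5p: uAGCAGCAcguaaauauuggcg
KIF21A: ttttataTGCTGCTAaatatat
KIF5B: taaactcTGCTGCTtcccaaca
KIF3B: gcctgcaTGCTGCTtgaattgc
KIF1C: cacaaacGCTGCTAtgggtggg
DYNC1I1: agaacatTGCTGCTccttattt
DYNLL2: tgattagTGCTGCTAtgaacat

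These matches lie in the longest annotated 3′UTR among the protein-coding transcripts of each gene in GENCODE release 29 on GRCh38. When transcripts of all types are taken, the longest 3′UTR of KIF21A carries no match. The KIF21A match is at chr12:39293568-39293575 on the reverse strand, and that of KIF5B is at chr10:32011346-32011352 on the reverse strand. The KIF3B match is at chr20:32334342-32334348 and that of KIF1C at chr17:5024421-5024427, both on the forward strand. The DYNC1I1 match is at chr7:96098070-96098076 and the DYNLL2 match at chr17:58095039-58095046, also on the forward strand. KIF5B and DYNC1I1 each carry 2 matches and DYNLL2 carries 3, of which 1 per gene is shown.

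Late after transfection, 13 of the 61 members had a logFC below −0.5, where the background over all genes was 5.73%. Only 3 members lay above 0.5, against 7.76% of all genes. The median late logFC was −0.27 over the members and 0.01 over all genes. In the early window no member was past 0.5 in either direction, where 1.45% of all genes were below and 2.04% above. At 6 h 0 members were below −0.5 (3.34% of all genes) and 1 above 0.5 (3.38%), and at 12 h 2 were below (2.53%) and 0 above (3.31%). At 24 h 7 members were below (5.26%) and 0 above (7.24%), and at 48 h 25 were below (8.96%) and 4 above (10.4%).

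**Figure D1:**
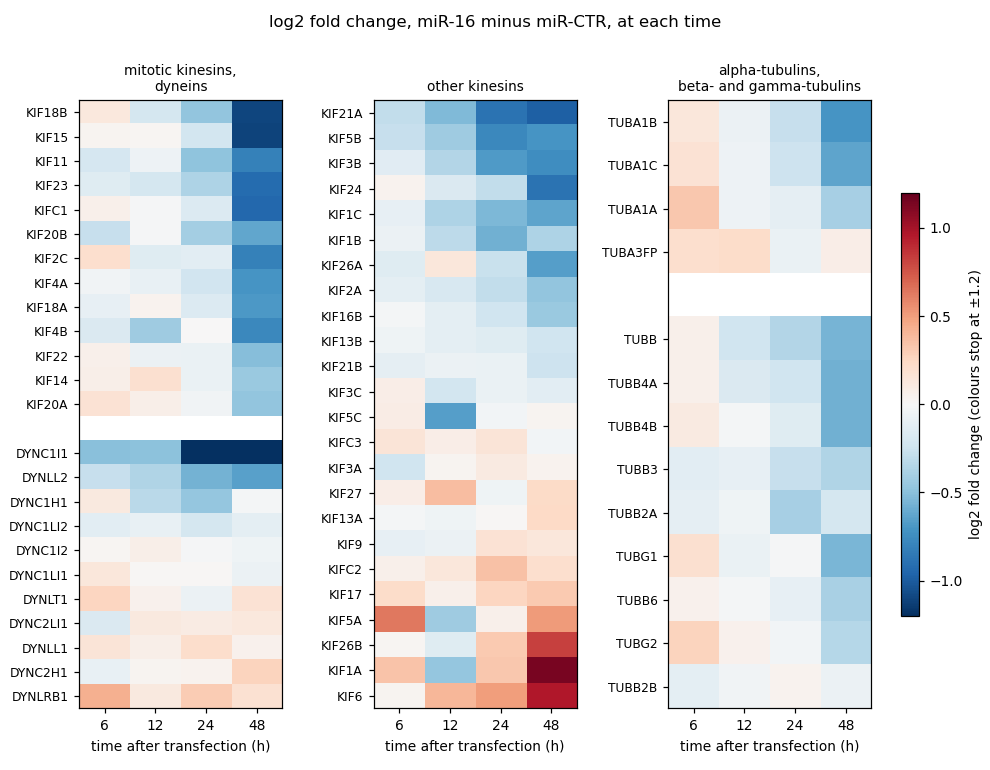
Map of the logFC of all 61 members (rows, grouped by role and sorted by late logFC) at 6, 12, 24, and 48 h (columns), with blue for lower and red for higher with miR-16. The darkest rows at both 24 and 48 h are kinesins and dyneins outside the mitotic group, whereas the mitotic kinesins darken mainly in the 48 h column.

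The 25 members below −0.5 at 48 h were divided by whether they were below it at 24 h too. In the first set, 6 members were below −0.5 at both 24 and 48 h, as were 2.78% of all genes, and 0 members were above 0.5 at both times, as were 4.03%. They are KIF21A, KIF5B, KIF3B, KIF1C, DYNC1I1, and DYNLL2. Their logFC at 12 h was between 32.9% and 60.6% of that at 48 h. The division into sets did not use the 12 h value, but it did use the 48 h value in this ratio. The second set comprised 19 members that passed the threshold at 48 h and not at 24 h. Over all genes, 8.96% were below −0.5 at 48 h, whatever their value at 24 h. The second set held 11 mitotic kinesins, 6 tubulins, KIF24, and KIF26A. Its logFC at 12 h was between −21.2% and 55.8% of that at 48 h, with a median of 12.7%. The ranges of the sets thus overlapped at 12 h. Over all 4 times, 18 members were negative throughout, where 16.7% of all genes were. KIF1B alone was below −0.5 at 24 h and not at 48 h.

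Among the motors that carry cargo, KIF5B, the heavy chain of conventional kinesin (kinesin-1), had the highest level per kb of exon at 0 h of the 24 other kinesins. Its log2 value was 12.96 at 0 h and then 13.01, 12.91, 12.84, and 12.79 at 6, 12, 24, and 48 h with miR-CTR. With miR-16 it was 12.73, 12.48, 12.07, and 12.08. Each miR-16 library lay below each of the 5 miR-CTR libraries, and the gap widened until 24 h. The logFC was −0.77 at 24 h and −0.71 at 48 h, which makes −0.74 late (counting SE 0.02). KIF5B held between 98.3% and 99.4% of the kinesin-1 heavy chain level per kb in all 9 libraries. Its relatives KIF5A and KIF5C, which prevail in neurons, had between 30 and 61 reads per library, and their late logFC of 0.29 and 0.00 had counting SE of 0.22 each. KIF5A and KIF5C each carry 2 matches to the seed, with an 8mer among them. The summed kinesin-1 level was 88.8% of the 0 h level at 48 h with miR-CTR and 54.7% with miR-16.

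KIF21A, a kinesin of the kinesin-4 family that restrains microtubule growth at the cell cortex, had the lowest late logFC of the kinesins. It stood at 11.79 at 0 h and, with miR-CTR, at 11.76, 12.02, 12.12, and 11.85 at the successive times. With miR-16 it stood at 11.46, 11.49, 11.23, and 10.87. Every miR-16 value was under every miR-CTR value. The logFC was −0.30, −0.53, −0.89, and −0.98, and the late logFC was −0.94 (SE 0.03), a level 47.7% lower. Its relative KIF21B, which has 2 matches to the seed, was less expressed and had a late logFC of −0.17 (SE 0.07).

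KIF3B, a motor subunit of heterotrimeric kinesin-2 that works in ciliary and vesicle transport, was at 11.03 at 0 h and between 11.09 and 11.17 with miR-CTR thereafter. With miR-16 it was at 10.98, 10.74, 10.49, and 10.41. The miR-16 values lay under all the miR-CTR values, and the late logFC was −0.72 (SE 0.03). KIF3A, the partner of KIF3B in the complex, had a late logFC of 0.08, and KIF3C and KIF17, the other kinesin-2 motors, had −0.11 and 0.29. The change in the family was thus unequal. The share of KIF3B in the kinesin-2 level per kb was 35.4% at 48 h with miR-CTR and 22.9% with miR-16, and that of KIF17 was 31.4% and 42.4%.

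KIF1C and KIF1B belong to the kinesin-3 family, which carries vesicles over long distances. KIF1C stood at 12.65 at 0 h, at 12.50, 12.54, 12.32, and 12.09 with miR-CTR, and at 12.40, 12.17, 11.78, and 11.46 with miR-16. It decreased with time under both mimics, and by more with miR-16. The late logFC was −0.59 (SE 0.02), and the late level was 0.45 below 0 h with miR-CTR and 1.03 below it with miR-16, on the log2 scale. KIF1B was at 11.09 at 0 h, at 11.32, 11.41, 11.51, and 11.23 with miR-CTR, and at 11.25, 11.10, 10.93, and 10.86 with miR-16. Its logFC was −0.58 at 24 h and −0.37 at 48 h, so that the late mean of −0.48 (SE 0.03) stayed inside the threshold, although its 3′UTR carries 6 matches, the most among the members.

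KIF24, a kinesin of the centriole that limits the formation of cilia, was also below −0.5 late, at −0.60 (SE 0.10). Its values were 8.50 at 0 h, 8.68, 8.31, 8.26, and 8.09 with the control mimic, and 8.72, 8.14, 7.96, and 7.20 after miR-16. The separation was largest at 48 h, where the logFC was −0.89, whereas at 6 h it was 0.04. KIF2A, a depolymerase of microtubule ends and the third of the other kinesins by level per kb, was at 10.81 at 0 h, at 11.01, 10.88, 10.89, and 10.88 in the control series, and at 10.89, 10.69, 10.59, and 10.41 after miR-16. The distance grew with time, and the late logFC of −0.39 (SE 0.04) stayed inside the threshold. KIF16B, an endosome motor, had −0.35, and KIF13B and KIF13A, relatives in the kinesin-3 family, had −0.20 and 0.13. KIF9, KIF27, KIFC2, and KIFC3 lay between 0.06 and 0.28.

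**Figure D2:**
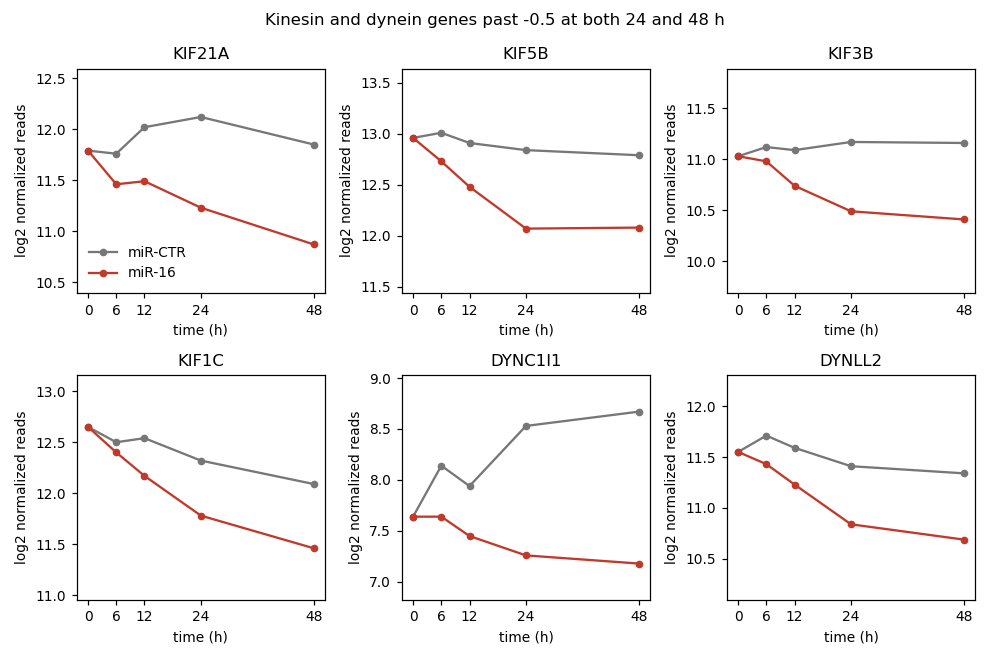
Normalized log2 reads (y axis, spans of equal height) against time in hours for the 6 members below −0.5 at both 24 and 48 h, with miR-16 in red and miR-CTR in grey and 1 library per point. Both lines start from the shared 0 h library, and the miR-16 line is the lower from 6 h on in each panel.

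In dynein, 2 of 11 members were below −0.5 late (5.73% of all genes), 0 were above 0.5 (7.76%), and the median was −0.03. DYNC1I1, an intermediate chain that links the dynein motor to dynactin and cargo, had the lowest late logFC of all members. It was at 7.64 at 0 h, and with miR-CTR at 8.14, 7.94, 8.53, and 8.67. With miR-16 it was at 7.64, 7.45, 7.26, and 7.18. The miR-CTR values at the later times were above 0 h, and the miR-16 values were at or below it. The late logFC was −1.38 (SE 0.10), a level 61.6% lower, composed of 0.96 above 0 h with miR-CTR and 0.42 below it with miR-16. The logFC was already −0.50 at 6 h, from 173 reads with miR-16 and 295 with miR-CTR.

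DYNC1I2, the other intermediate chain, was at 11.43 at 0 h, at 11.26, 11.41, 11.56, and 11.55 with miR-CTR, and at 11.28, 11.48, 11.55, and 11.50 with miR-16. The mimics stayed within 0.07 of each other at all 4 times. DYNC1I2 has no match to the seed, and its late logFC was −0.03 (SE 0.03). It supplied most of the intermediate chain level, so that the share of DYNC1I1 per kb was 6.9% at 0 h, 12.2% at 48 h with miR-CTR, and 4.9% at 48 h with miR-16. The sum of both chains was 115.3% of the 0 h level with miR-CTR and 102.7% with miR-16 at 48 h.

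The LC8 light chains, DYNLL1 and DYNLL2, differed in the same way. DYNLL2 stood at 11.55 at 0 h, at 11.71, 11.59, 11.41, and 11.34 with miR-CTR, and at 11.43, 11.23, 10.84, and 10.69 with miR-16. The miR-16 value was the lower at each time and the distance grew. DYNLL1 had the highest level per kb of the dyneins and stood at 12.32 at 0 h, at 12.10, 12.12, 11.88, and 12.00 with miR-CTR, and at 12.25, 12.19, 12.09, and 12.05 with miR-16. It was slightly the higher with miR-16 at each time. The late logFC was −0.61 (SE 0.03) for DYNLL2, with 3 matches to the seed, and 0.13 (SE 0.02) for DYNLL1, without one. The DYNLL2 share of the pair at 48 h was 21.6% with miR-CTR and 14.5% with miR-16.

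The other dynein chains stayed inside the threshold. DYNC1H1, the heavy chain that holds the motor, was at 13.37 at 0 h, at 14.02, 13.89, 14.19, and 13.86 with miR-CTR, and at 14.14, 13.57, 13.73, and 13.84 with miR-16. Its logFC was −0.46 at 24 h and −0.02 at 48 h, and both mimics ended above 0 h. DYNLRB1, a roadblock light chain, was at 10.87 at 0 h, at 10.55, 10.77, 10.86, and 10.88 with miR-CTR, and at 10.98, 10.89, 11.16, and 11.06 with miR-16. It had the highest late logFC of the dyneins, 0.24 (SE 0.03), and it carries 2 matches to the seed including an 8mer. DYNC1LI2, a light intermediate chain with an 8mer, had −0.17 (SE 0.03), and its relative DYNC1LI1 without a match had −0.03 (SE 0.04). DYNC2H1 and DYNC2LI1 of the ciliary dynein had 0.16 and 0.12, and the light chain DYNLT1 had 0.05.

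**Figure D3:**
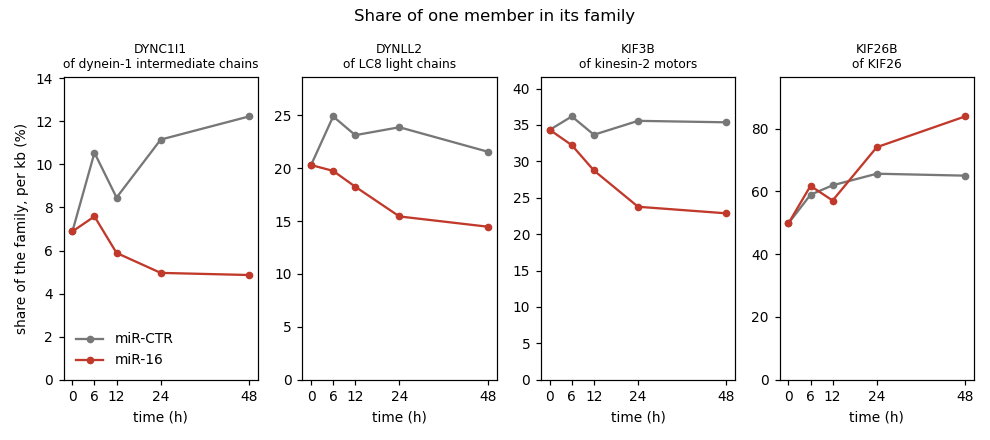
Share of DYNC1I1, DYNLL2, KIF3B, and KIF26B in the summed level per kb of their families (percent, y axes from 0) against time in hours, with miR-16 in red and miR-CTR in grey. With miR-16 the shares of DYNC1I1, DYNLL2, and KIF3B are the lower at each time after 0 h, and that of KIF26B ends at 83.9% against 65.0%.

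Of the role groups, the mitotic kinesins had the most members below −0.5 late. In this group 6 of 13 were below −0.5 late (5.73% of all genes) and 0 above 0.5 (7.76%), all 13 were negative, and the median was −0.47. At 24 h, 0 of 13 were below −0.5 (5.26% of all genes) and the median was −0.16. At 48 h, 11 of 13 were below (8.96% of all genes) and the median was −0.77. These 48 h values rest on 1 pair of libraries. The counting SE at 48 h lay between 0.037 and 0.096 for the 12 members other than KIF4B, a near-identical copy of KIF4A with 20 to 60 reads, whose reads cannot be told from those of KIF4A with certainty.

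KIF18B, a plus-end motor that controls astral microtubule length, was at 10.16 at 0 h, at 10.46, 10.12, 10.00, and 9.89 with miR-CTR, and at 10.59, 9.91, 9.53, and 8.79 with miR-16. The miR-16 line crossed from above to below after 6 h. From −0.47 at 24 h the logFC went to −1.10 at 48 h, a late mean of −0.79 (SE 0.05). KIF15, which helps to keep the spindle bipolar, had 9.26 at 0 h, 9.35, 9.31, 9.33, and 9.45 with the control mimic, and 9.38, 9.33, 9.11, and 8.34 after miR-16. Its values agreed within 0.03 up to 12 h, and the logFC of −1.11 at 48 h was the lowest of the mitotic kinesins.

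KIF11 (Eg5), which pushes the spindle poles apart, was at 11.65 at 0 h, at 11.80, 11.49, 11.44, and 11.37 with miR-CTR, and at 11.60, 11.43, 10.96, and 10.56 with miR-16. KIF23 (MKLP1), a subunit of centralspindlin in cytokinesis, was at 11.82 at 0 h, at 12.25, 11.97, 11.93, and 12.05 with miR-CTR, and at 12.10, 11.76, 11.56, and 11.13 with miR-16. Both had a late logFC of −0.65 (SE 0.03). For both, the miR-16 values at 24 and 48 h lay below all 5 miR-CTR values.

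KIFC1, a minus-end motor that gathers spindle poles, was at 11.35 at 0 h, at 11.48, 11.24, 11.14, and 11.18 with miR-CTR, and at 11.54, 11.23, 10.98, and 10.24 with miR-16. The mimics stayed within 0.16 of each other until 24 h, and the logFC at 48 h was −0.94. KIF20B, another cytokinesis motor, was at 10.76 at 0 h, at 10.81, 10.51, 10.46, and 10.35 with miR-CTR, and at 10.53, 10.50, 10.05, and 9.73 with miR-16. The late logFC was −0.55 for KIFC1 and −0.52 for KIF20B.

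The remaining mitotic kinesins passed the threshold at 48 h alone or not at all. KIF2C (MCAK), a depolymerase at kinetochores, was at 11.39 at 0 h, at 11.84, 11.53, 11.32, and 11.25 in the control series, and at 12.04, 11.38, 11.19, and 10.44 after miR-16. The 48 h value was the furthest from the control series, with a logFC of −0.81 after −0.13 at 24 h. KIF4A, a motor of chromosome arms, was at 11.22 at 0 h, at 11.52, 11.33, 11.04, and 11.12 in the control series, and at 11.48, 11.24, 10.81, and 10.41 after miR-16. Its logFC was −0.23 at 24 h and −0.71 at 48 h, and its copy KIF4B had 0.00 and −0.77. KIF4B was at 5.75 at 0 h, at 5.86, 5.63, 5.32, and 5.24 in the control series, and at 5.69, 5.20, 5.32, and 4.47 after miR-16, all from few reads.

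KIF18A, which aligns chromosomes, was at 9.68 at 0 h, at 9.80, 9.48, 9.39, and 9.37 in the control series, and at 9.70, 9.52, 9.23, and 8.68 after miR-16. The series parted at 48 h, where the logFC was −0.69. KIF22, a motor that binds chromosomes, was at 10.59 at 0 h, at 10.95, 10.76, 10.52, and 10.49 in the control series, and at 11.01, 10.69, 10.44, and 9.98 after miR-16. It was just past the threshold at 48 h with −0.51, and at −0.08 at 24 h. KIF14 and KIF20A (MKLP2), which act in cytokinesis, were at −0.45 and −0.47 at 48 h and so stayed inside it.

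**Figure D4:**
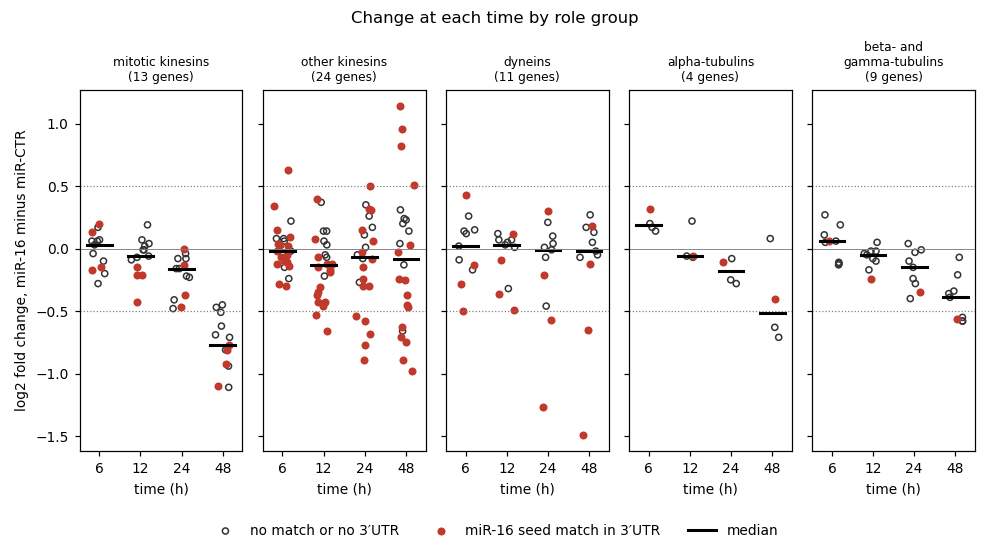
logFC of every member (points) at 6, 12, 24, and 48 h by role group, with filled red points for members with a match to the miR-16 seed in the longest 3′UTR, bars for group medians and dotted lines at ±0.5. The 13 mitotic kinesins all lie below 0 at 48 h, with and without a match, whereas the lowest dyneins and other kinesins at 24 h are filled points.

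Of the 4 times, the tubulins as a group were furthest below 0 at 48 h, with a median logFC of −0.15 at 24 h and −0.40 at 48 h. None of the 13 was past 0.5 late, 12 were negative, and the median was −0.31. At 48 h 6 of 13 were below −0.5, as were 8.96% of all genes. TUBB, the main beta-tubulin with 71.8% of the beta-tubulin level per kb at 0 h, was at 16.02 at 0 h, at 16.22, 16.11, 15.80, and 15.61 with miR-CTR, and at 16.28, 15.87, 15.45, and 15.05 with miR-16. Both series declined after 6 h, and the miR-16 series declined further. TUBB carries a 7mer-m8 match to the seed and was lower with miR-16 from 12 h on, with a logFC of −0.24, −0.35, and −0.56 at 12, 24, and 48 h. The late logFC of TUBB was −0.46 (counting SE 0.01).

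TUBA1B, which supplied 54.7% of the alpha-tubulin level per kb at 0 h, was at 14.94 at 0 h, at 15.13, 15.13, 14.83, and 14.62 with miR-CTR, and at 15.27, 15.06, 14.55, and 13.91 with miR-16. It was higher with miR-16 at 6 h, with a logFC of 0.14, and lower at 48 h, with −0.71. Its late logFC of −0.495 was the nearest to the threshold from inside, and KIF20B, at −0.515, was the nearest from the other side. TUBA1C was at 14.70 at 0 h, at 14.89, 14.91, 14.59, and 14.38 in the control series, and at 15.06, 14.85, 14.34, and 13.75 after miR-16. Its values ran parallel to those of TUBA1B, with a logFC of −0.25 at 24 h and −0.63 at 48 h. TUBA1A was at 12.35 at 0 h, at 12.45, 12.50, 12.34, and 11.84 in the control series, and at 12.77, 12.44, 12.23, and 11.44 after miR-16. It had the largest logFC of the alpha-tubulins at 6 h, 0.32, and −0.40 at 48 h. TUBA1A carries a 7mer-m8 match to the seed, and its late logFC was −0.255. TUBA1B and TUBA1C carry no match, and theirs were −0.495 and −0.44. TUBA3FP, a transcript without an annotated protein and with low values in all libraries, had a late logFC of 0.00 (SE 0.35).

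The other tubulins past the threshold at 48 h were TUBB4A and TUBB4B, both at −0.58, and TUBG1, the gamma-tubulin of the centrosome, at −0.55. TUBB4A was at 12.81 at 0 h, at 12.96, 13.11, 13.08, and 13.13 in the control series, and at 13.02, 12.94, 12.84, and 12.55 after miR-16. TUBB4B was at 13.06 at 0 h, at 13.20, 12.94, 12.57, and 12.48 in the control series, and at 13.31, 12.92, 12.42, and 11.90 after miR-16. The control series thus went up for TUBB4A and down for TUBB4B, while the logFC at 48 h was the same. TUBG1 was at 11.65 at 0 h, at 11.83, 11.84, 11.44, and 11.19 in the control series, and at 12.02, 11.76, 11.43, and 10.64 after miR-16. The late value with miR-CTR was 0.30 above 0 h for TUBB4A and 0.54 below it for TUBB4B. TUBB3, the neuronal isotype, TUBB6, and TUBG2 had a late logFC of −0.32, −0.25, and −0.19. TUBB2B had a late logFC of −0.02 (SE 0.05) and TUBB2A −0.31 (SE 0.07), with −0.40 at 24 h and −0.21 at 48 h. Because TUBA1A, TUBA1B and TUBA1C, TUBB2A and TUBB2B, and several tubulin pseudogenes share long stretches of sequence, their separate values are uncertain where the counting could split reads between them.

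Summing the isotypes avoids part of that uncertainty. The alpha-tubulin sum per kb was 113.4% of the 0 h level at 6 h with miR-CTR and 127.4% with miR-16, and at 48 h it was 79.2% and 50.4%. The beta-tubulin sum was 76.9% and 52.6% at 48 h. The isotype composition at 48 h was close between the mimics, with TUBB at 70.3% of the beta-tubulin level with miR-CTR and 69.7% with miR-16. The TUBB4A share was 7.5% at 0 h, and 12.2% and 11.9% at 48 h, so that it was higher than at 0 h under both mimics. The mitotic kinesin sum was 89.8% with miR-CTR and 53.0% with miR-16 at 48 h, and 91.7% and 78.7% at 24 h.

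**Figure D5:**
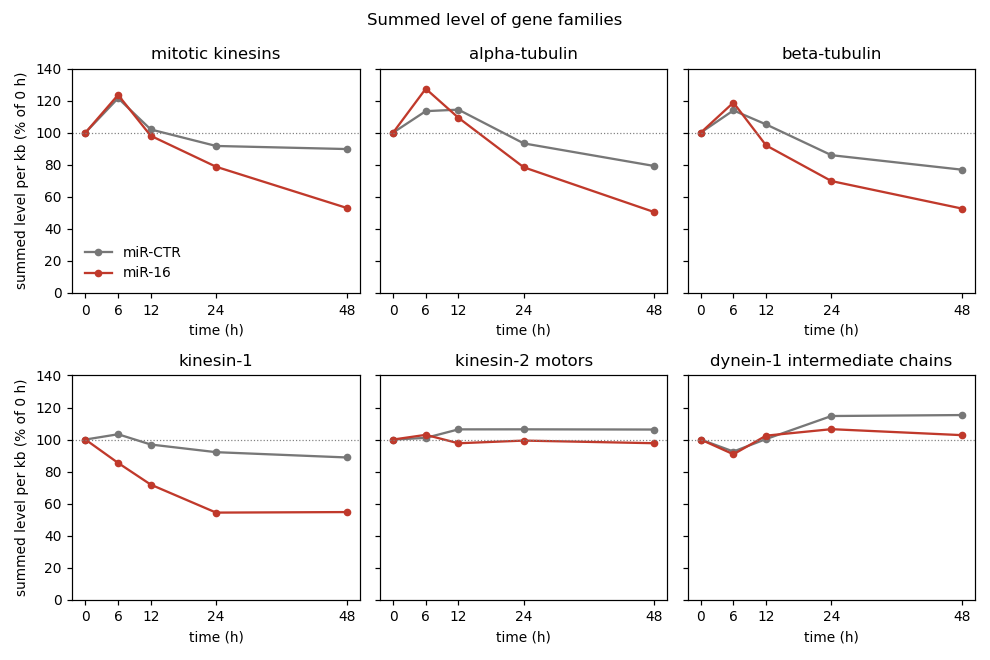
Summed level per kb of 6 gene families as a percentage of the shared 0 h library (y axes from 0) against time in hours, with miR-16 in red and miR-CTR in grey. The kinesin-1 sum is already at 54.4% at 24 h with miR-16, the mitotic kinesin and tubulin sums reach between 50.4% and 53.0% at 48 h, and the kinesin-2 and intermediate chain sums stay between 90.8% and 115.3%.

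The changes since 0 h were set side by side, since both mimics share that library. At the late times, 7 members with miR-CTR were more than 0.5 below 0 h (9.79% of all genes) and 6 more than 0.5 above (11% of all genes). With miR-16, 27 members were below (11.7% of all genes) and 5 above (14.1%). The median of the mitotic kinesins was −0.19 with miR-CTR and −0.70 with miR-16, and that of the 13 tubulins was −0.32 and −0.66. The dyneins had 0.08 and 0.01, and the other kinesins 0.11 and −0.09. Tubulins and mitotic kinesins thus had negative medians in both series, which was not the case for dyneins and other kinesins.

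Only 3 members were above 0.5 late, all of them kinesins outside the mitotic group. KIF26B, an atypical kinesin that acts in cell adhesion and polarity, was at 9.56 at 0 h, at 9.82, 9.54, 9.68, and 9.47 with miR-CTR, and at 9.84, 9.39, 9.99, and 10.29 with miR-16. The values separated at 24 and 48 h, with a late logFC of 0.57 (SE 0.05). KIF26A, its relative, moved the other way, with a late logFC of −0.47 (SE 0.11), and was at 8.48 at 0 h, at 8.21, 7.75, 7.66, and 7.49 with miR-CTR, and at 8.06, 7.89, 7.39, and 6.83 with miR-16. It declined under both mimics.

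KIF6 was at 6.18 at 0 h, at 6.10, 6.12, 6.48, and 6.76 with miR-CTR, and at 6.13, 6.52, 6.98, and 7.72 with miR-16. It was above 0 h late under both mimics, and its late logFC was 0.73 (SE 0.13). KIF1A, a vesicle motor of neurons, was at 6.08 at 0 h, at 6.32, 6.47, 5.68, and 4.82 with miR-CTR, and at 6.66, 6.01, 6.00, and 5.96 with miR-16. Its late logFC of 0.73 (SE 0.21) came from 32 reads with miR-CTR and 58 with miR-16 at 48 h, and its late value with miR-16 was 0.10 below 0 h. KIF5A was at 5.10 at 0 h, at 4.89, 5.89, 5.50, and 5.06 in the control series, and at 5.52, 5.46, 5.56, and 5.57 after miR-16. Its series overlapped, and it was the fourth member above 0.5 at 48 h, at 0.51, from 38 and 44 reads. The directions of KIF1A and KIF5A therefore rest on few reads.

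A match to the seed in the longest 3′UTR was found in 26 of the 60 protein-coding members (43.3%) and in 3383 of 11584 protein-coding genes with a 3′UTR (29.2%). By role it was found in 16 of 24 other kinesins, 4 of 11 dyneins, 4 of 13 mitotic kinesins, and 2 of 12 tubulins. The 3′UTRs of members with a match had a median length of 2225 bases against 595 bases without one, and the part of length in these shares was not tested. All 7 members below −0.5 late outside the mitotic group carry a match, as do 2 of the 6 mitotic ones, KIF18B and KIF23. The mitotic members without one are KIF11, KIF15, KIF20B, and KIFC1. When transcripts of all types are taken, the longest 3′UTR of KIF15 does carry a match. Among all genes below −0.5 late, 52.7% carry a match.

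Members with and without a match were also followed over time. The median logFC of the 26 members with a match was −0.21 at 12 h and −0.46 at 48 h, and that of the 34 members without was −0.01 and −0.35. Over all protein-coding genes with a 3′UTR it was −0.05 and −0.09 with a match, and 0.01 and 0.02 without. The 34 include 9 mitotic kinesins and 10 tubulins, so match and role were not separated. A match did not come with a lower level in every case. A match was found in all 3 members above 0.5 late, whose 3′UTRs have a median length of 6542 bases. Among all protein-coding genes above 0.5 late, 21.1% carry a match. Of the 44 members in between, 14 carry a match too, where 28.3% of all such genes in between do. The windows of KIF26B and KIF1A are printed for comparison with the 6 above, the match again in capitals, with that of KIF23, the mitotic kinesin with an 8mer.
KIF26B: tcacgctTGCTGCTcagacttt
KIF1A: gggtggcTGCTGCTtcctgcta
KIF23: aaacaaaTGCTGCTAtttatta

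These matches lie at chr1:245706244-245706250 for KIF26B. KIF1A carries 2, of which the one shown is at chr2:240714553-240714559 on the reverse strand. The match of KIF23 is at chr15:69448238-69448245. The 3′UTR of KIF26B is long, 6825 bases, and that of KIF23 has 620 bases.

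After the mitotic kinesins were seen to move together at 48 h, promoters were searched on both strands. The motifs were TTTGAA, the letters of the cell cycle genes homology region (CHR), and CCAAT, the box bound by NF-Y. This search was not among the results planned beforehand. The promoters were taken from RefSeq (GRCh38.p14) and span 250 bases before to 50 bases after the start, and 52 of the 61 members had one. TTTGAA was found in 10 of 13 mitotic kinesins (76.9%), in 1 of 17 other kinesins, in 0 of 10 dyneins, in 2 of 12 tubulins, and in 9.5% of the 9599 measured genes with a promoter. CCAAT was found in 11 of 13 mitotic kinesins (84.6%) and 8 of 12 tubulins, against 37.0% of all these genes. Both were found in 9 of 13 mitotic kinesins and 4.1% of all genes. Each motif was counted whether or not it overlapped the other. KIF4A and its copy KIF4B, whose TTTGAA windows are nearly the same, were counted separately. In the mitotic kinesins the first base of TTTGAA, or of its reverse complement TTCAAA, lay between 55 bases before and 31 bases after the start. Windows from 4 of them are shown with the motif in capitals.
KIF11: ctgtctctttTTCAAAttgaggcgcc
KIF15: aagcgccaaaTTCAAAtttgcggcca
KIF4A: ccgggacggaTTTGAAacttggcggt
KIF23: gattggcccgTTTGAAatgcgccagg

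The window of KIF11 is at chr10:92593092-92593117, that of KIF15 at chr3:44761749-44761774, that of KIF4A at chrX:70290060-70290085, and that of KIF23 at chr15:69414284-69414309, all on the forward strand. The median logFC at 48 h was −0.79 for the 10 mitotic kinesins with TTTGAA and −0.51 for the 3 without it. For CCAAT the order was the opposite, with −0.71 for the 11 with it and −0.96 for the 2 without it. A match of letters is a description of these windows and not a bound site. The mitotic kinesins were grouped by role, so the shares describe that group, and a link to the change with miR-16 was not tested.

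Genes that work with these motors moved less than the mitotic ones. A list of 25 measured dynactin subunits, dynein regulators and adaptors had a median late logFC of −0.06. In it, 1 gene was below −0.5 late (5.73% of all genes) and 1 above 0.5 (7.76% of all genes). They were SPDL1, which recruits dynein to kinetochores (−0.56), and HOOK3, a dynein adaptor (0.63). In a list of 15 kinesin light chains and adaptors, 0 were below (5.73% of all genes) and 1 was above (7.76%), the adaptor MAPK8IP1 (0.55), with a median of −0.12. The late value minus 0 h was −0.7 with miR-CTR and −0.075 with miR-16 for HOOK3, and −0.76 and −0.215 for MAPK8IP1. In a list of 24 further mitotic genes, 12 were below −0.5 late (5.73% of all genes) and 0 above 0.5 (7.76%). Their median was −0.51 late and −0.78 at 48 h, beside −0.47 and −0.77 for the mitotic kinesins. The list holds CENPE, which is itself a kinesin under another name, and without it 11 of 23 were below and the medians were −0.50 and −0.79. The 3 lowest were ANLN (−1.21), a scaffold of the cytokinetic ring, ASPM (−0.78), which acts at the spindle poles, and NUF2 (−0.69), a kinetochore subunit.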

How the data were processed

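PolyA RNA of MP41 cells was sequenced in 9 libraries, 1 per condition. The submitters' processing notes name FastQC, STAR 2.4.0a, featureCounts of Subread 1.5.0-p3, and hg38 (GRCh38). The filter on weakly expressed genes and the normalization are not given in the sources used here. The deposited table holds 1 log2 value per gene and library, to 2 decimals and with decimal commas. Its columns carry time codes (T0, T1, T2, T4, T5), which were read as 0, 6, 12, 24, and 48 h in ascending order. No source states this map. On the linear scale and less 1, 100% of the values up to a log2 of 5 were whole multiples of 1 step per library (tolerance 0.006 on the log2 scale), from which the reads and the counting SE were recovered. The deposited values were not normalized again.

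The design was fixed as values with no test, because each condition had 1 library. Levels were compared between members only per kb of the union of annotated exons, on the linear scale. The cell type markers are given as log2 values without correction for exon length. Symbols were joined to GENCODE release 29 (all 61 members matched), and 3′UTRs are those of protein-coding transcripts. Python 3.11.15, numpy 2.4.6, pandas 2.3.3 and matplotlib 3.10.9 were used. The recovery of reads and the calling were tested on simulated data with counting error alone. Those data held no spread between cultures and cannot show how reliable a call from 1 library per condition is. Any member may be named. Given in full were members past 0.5 late or at only 1 of 24 and 48 h, and the 3 with the highest level per kb at 0 h in each role group. Genes outside the members were named only if past 0.5 late with the same sign at 24 and 48 h and in a fixed list (at most 5 per list and direction), or as cell type markers. Exceptions are CENPE, named as a kinesin under another name, and KIFAP3 and TUBGCP2 to TUBGCP6, named as left out by their spelling. The members and lists were chosen with earlier results of these data known. Alternatives were a 1.5-fold threshold, quantile normalization, centring on the median gene, the 0 h library as reference, the threshold at both times, single times, a filter on the lowest 25% of genes, 16 added to the linear values, and other definitions of a site. The sequence of 1 further 3′UTR match is not reported here. The pull-down and other experiments of the study were not analysed here.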

Additional observations from a re-analysis of the deposited data

How the results depend on the processing

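Late calls were little changed by processing and changed by the choice of time and reference. Below −0.5 and above 0.5, the counts of 13 and 3 members stayed within 1.5-fold with a 1.5-fold threshold, quantile normalization, centring and 16 added to the values, and so did the count below with the filter on weakly expressed genes, which left 1 member above (KIF26B, 1 of the other kinesins) and moved the members' median to −0.31. With the threshold at both times, 6 members were below and 0 above, among them 0 mitotic kinesins and 0 other kinesins above. At 24 h alone the counts were 7 and 0, again with 0 mitotic kinesins below and 0 other kinesins above, and the median was −0.11. At 48 h alone 25 members were below (11 mitotic kinesins, 2 alpha-tubulins and 4 beta- and gamma-tubulins), and the median was −0.39. In the early window 1 member was above at 6 h alone and 2 were below at 12 h alone. Against the 0 h library, 3 members were below early, and 27 were below and 5 above late, with 10 mitotic kinesins, 4 alpha-tubulins, 6 beta- and gamma-tubulins and 1 dynein below and 2 dyneins above, and the median was −0.42. KIF1A reversed there, to −0.10. Its late direction therefore depends on the reference. Of the 26 members with a match to the seed, 8 had an 8mer. Among the 16 called members, 109 of 110 recomputed late values kept their sign and 96 stayed past 0.5. These totals pool settings that could hardly move a call with others that could. All 16 stayed past 0.5 at 48 h alone, which is part of the late mean, and 6 did so at 24 h alone. Against the 0 h library 13 did. The 3′UTRs of all transcript types were added as an alternative after seeing the data, and the promoter search was also made after the 48 h values were seen. Each logFC is a difference within 1 time. A fit with time as a block, which would take the 4 times as repeats of a single effect, was not made, and with 1 library per condition no replicate could be left out. Depth limits KIF1A, KIF4B, KIF5A, KIF5C, KIF6, KIF9, KIF26A, KIF27, and TUBA3FP, the 9 members with a counting SE above 0.1 late.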

Other observations

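Genes that fold and modify tubulin were described apart from the tubulins themselves. Of 24 measured genes of tubulin folding and modification, 2 were below −0.5 late (5.73% of all genes) and 2 above 0.5 (7.76%). The median of the 24 was 0.08. ARL2, a small GTPase that works with the tubulin cofactors, had the lowest value of this list, with a logFC of −0.27, −0.94, −1.30, and −1.78 at 6, 12, 24, and 48 h, and its longest 3′UTR carries an 8mer match to the miR-16 seed. Genes of this list inside the threshold carry 7mer-m8 matches. TTLL7, a tubulin polyglutamylase, was at −0.72 late. TTLL1, another polyglutamylase, was at 0.58 and VASH2, which removes the terminal tyrosine of alpha-tubulin, at 0.64.

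Among 32 measured microtubule-associated proteins and severing enzymes, 3 were below −0.5 late (5.73% of all genes) and 3 above 0.5 (7.76%). The median of the 32 was −0.17. KATNAL1, a katanin that severs microtubules, had −0.39, −0.62, −0.80, and −0.91 at the successive times and carries an 8mer match. Several genes of this list that stayed inside the threshold carry a match too. FIGNL1 was at −0.54, and TPPP3, which had few reads, at −0.88 (counting SE 0.33). MAP2, a stabilizer of neuronal microtubules, had 0.01, 0.26, 0.69, and 1.78 at the successive times, and its late value was 0.77 below 0 h with miR-CTR and 0.47 above it with miR-16. SPAST, another severing enzyme, was at 0.55 late, and MAP1B at 0.51 (counting SE 0.20), of which 0.95 at 48 h and 0.06 at 24 h. Both were below 0 h late under both mimics. The late value minus 0 h was −0.86 with miR-CTR and −0.31 with miR-16 for SPAST, and −2.025 and −1.52 for MAP1B. Of 18 genes of the gamma-tubulin ring complex and augmin, 1 was below −0.5 late (5.73% of all genes), TUBGCP3 (−0.58). None was above 0.5 (7.76% of all genes), and the median was −0.05. TUBGCP3 has a 7mer-m8 match, as do genes of this list that stayed inside the threshold, with late values of either sign.

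With 1 library per condition, the spread between cultures is not known, and the 48 h values that carry the mitotic kinesins and the tubulins rest on 1 miR-16 and 1 miR-CTR library. The order of the time codes and the join by gene symbol are assumptions of the processing. The 3′UTRs are annotated ones, and those in use in MP41 cells were not measured.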
